A study of Mus musculus with 12 samples.

Results

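The genes described here encode the subunits of the mitochondrial respiratory chain and ATP synthase that are made from nuclear DNA. They were taken from the table of read counts by symbol, as rows beginning with Nduf (complex I), Uqcr (complex III), Cox4 to Cox8 (complex IV) or Atp5 (complex V) and followed by a subunit code. Of 49568 genes, 80 matched, and 78 were kept after Ndufs5 and Cox6c, which have near copies elsewhere in the genome, were left out. They comprise 36 genes of complex I, 8 of complex III, 17 of complex IV and 17 of complex V. The split goes by symbol, so Ndufa4 and Ndufa4l2 stand with complex I although the NDUFA4 protein is now placed in complex IV. Atp5s and Atp5sl carry the prefix but are not subunits of the enzyme itself.

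RNA was sequenced from cardiomyocytes of male mouse hearts in 4 groups of 3 libraries. The dKO TAC group was MHC-MerCreMre/+; Mrtf-a-/-; Mrtf-bflox/flox with trans-aortic constriction, which narrows the aorta and so raises the pressure against which the left ventricle pumps. The dKO sham group had the same genotype with sham surgery. The control TAC and control sham groups were alphaMHC-MerCreMre/+, with the same 2 surgeries. All 4 groups therefore carried the tamoxifen-inducible Cre, which the alpha-myosin heavy chain promoter drives in cardiomyocytes, and all were 11 weeks old at isolation. In the dKO, Mrtf-a was lost from every cell of the animal and Mrtf-b was floxed. All animals were given tamoxifen at 8 weeks (30 ug/g on each of 3 days), and hearts were taken 7 days after surgery. The age at surgery is 10 weeks in the labels' protocols and 8 weeks in the design text, and the sources used here do not settle it. The labels do not say whether a library is 1 animal, so the p-values measure the spread between these samples, which may be technical.

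Oxidative phosphorylation passes electrons from NADH through complex I, ubiquinone, complex III, cytochrome c and complex IV to oxygen, and the protons pumped on the way drive ATP synthase, complex V. The heart makes nearly all of its ATP in this way, and cardiomyocytes are among the cells richest in these enzymes. Most subunits are nuclear genes whose products are imported into mitochondria, while a small core of each of these complexes is encoded by mitochondrial DNA. Several complex IV subunits exist as pairs, with an isoform of heart and skeletal muscle and a widely expressed partner, often called the liver isoform.

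Total counts per library were between 20082000 and 29675212. The dKO sham replicate 1 and dKO TAC replicate 2 libraries stood apart. The mitochondrially encoded genes held 15.32% of counts in dKO TAC replicate 2 and 16.51% in dKO sham replicate 1, against 23.16 to 32.57% in the other 10. In these 2 libraries, short transcripts were over-represented relative to the other replicates of their group: across genes, exon length and a gene's deviation correlated with a Spearman rho of -0.60 in dKO TAC replicate 2 and -0.62 in dKO sham replicate 1. The genes described here are short, with a median exon length of 1550 nt against 4809 nt over the 9741 genes examined, so the main results are given with and without these 2 libraries. Mkl1, the gene of MRTF-A, had 2.5, 2.93 and 2.22 CPM in dKO TAC and 2.15, 2.88 and 3.20 CPM in dKO sham libraries, against 9.32, 16.0 and 15.6 CPM in control TAC and 7.59, 11.4 and 8.89 CPM in control sham libraries, with no overlap between genotypes. Mkl2, the gene of MRTF-B, had 15.2 to 28.1 CPM in the 6 dKO and 30.1 to 44.1 CPM in the 6 control libraries, also without overlap. CPM is a gene's count scaled to a common library size after TMM normalization. Defining cardiomyocyte markers were abundant in every library, with Tnnt2, cardiac troponin T, between 5583 and 20318 CPM. The sum of 8 such markers was 37035 to 43065 CPM in dKO TAC and 47733 to 96742 CPM in dKO sham, without overlap, and 35665 to 60177 CPM in control TAC and 46480 to 62662 CPM in control sham libraries. Their median log2 change for TAC was -0.56 in dKO (-0.20 without the 2 libraries) and -0.25 in control hearts. Estimates were positive for 3 of the 8 in dKO and for 2 in control hearts. Over both genotypes 2 of the 8, Tnni3 and Pln, fell (edgeR adjusted p = 0.0432 and 0.0184), where 7.08% of all genes did. Fibroblast markers were also present, with a sum over 8 genes of 2871 to 3965 CPM in dKO TAC and 285 to 686 CPM in dKO sham, and of 1143 to 10007 CPM in control TAC and 401 to 844 CPM in control sham libraries. These fibroblast sums were higher after TAC in both genotypes. The part of either marker list in the results that follow was not tested. In RNA from many cells, fewer cells of a type and less RNA per cell cannot be told apart.

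The 78 genes together held 3.17, 4.54 and 3.20% of counts in dKO TAC replicates 1 to 3 and 8.60, 4.14 and 4.06% in dKO sham replicates 1 to 3. They held 3.85, 3.32 and 3.30% in control TAC and 4.02, 3.42 and 4.15% in control sham libraries. The dKO sham replicate 1 library was the highest of the 12, and without it and dKO TAC replicate 2 both dKO TAC libraries lay below both dKO sham libraries, while control TAC replicate 1 lay inside the control sham range. Among the complexes, complex V had the largest summed level, with 14372 ± 1089 CPM in dKO TAC and 24742 ± 11945 CPM in dKO sham, and 14298 ± 2698 CPM in control TAC and 18345 ± 2755 CPM in control sham libraries (SD, n = 3 each). Without the 2 libraries the dKO means were 13792 CPM after TAC and 17856 CPM after sham (n = 2 each). Complex I summed to 8762 ± 1505 CPM in dKO TAC and 17987 ± 11584 CPM in dKO sham, and to 9334 ± 1788 CPM in control TAC and 11482 ± 1647 CPM in control sham libraries (SD, n = 3 each). Complex IV summed to 5706 ± 1217 CPM in dKO TAC and 12633 ± 9609 CPM in dKO sham, and to 5670 ± 869 CPM in control TAC and 6978 ± 1063 CPM in control sham libraries (SD, n = 3 each). Complex III summed to 4061 ± 535 CPM in dKO TAC and 7445 ± 4384 CPM in dKO sham, and to 4113 ± 745 CPM in control TAC and 4920 ± 733 CPM in control sham libraries (SD, n = 3 each). Without the 2 libraries, the complex I dKO means were 7898 CPM after TAC and 11303 CPM after sham, and those of complex IV were 5006 CPM after TAC and 7086 CPM after sham (n = 2 each). The complex III dKO means were 3761 CPM after TAC and 4915 CPM after sham without them. The SDs were largest in dKO sham, where replicate 1 had 31354 CPM of complex I, against 11712 and 10894 CPM in replicates 2 and 3.

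**Figure D1:**
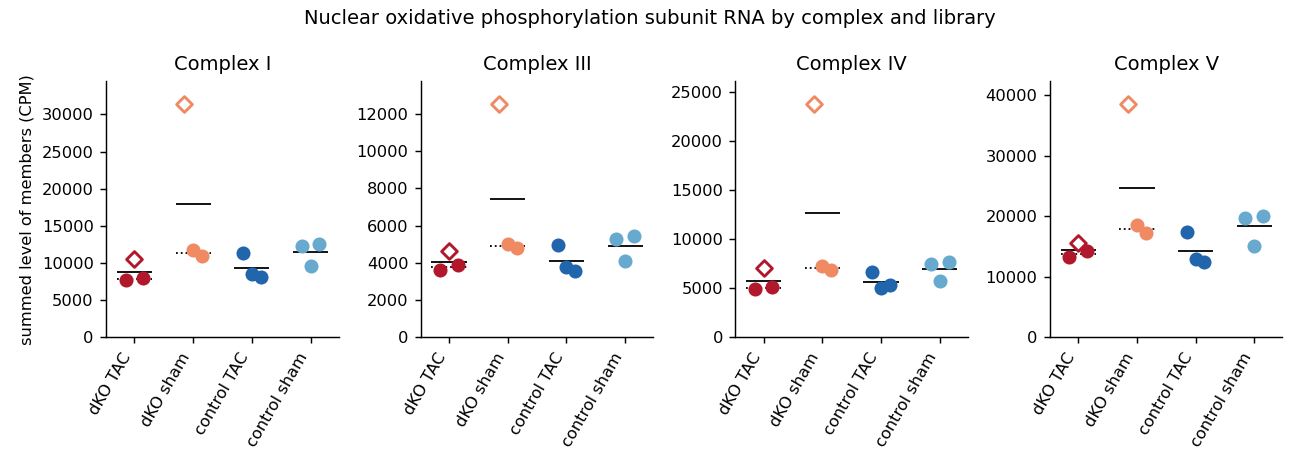
Summed level of the members of each complex in CPM (vertical axis) for each library of the 4 groups (horizontal axis). Filled circles are libraries, open diamonds are dKO TAC replicate 2 and dKO sham replicate 1, solid lines are group means over 3 libraries and dotted lines are dKO means without the diamonds; in complex I the dKO sham diamond stands at 31354 CPM while the other 2 dKO sham libraries are at 11712 and 10894 CPM.

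Levels of single genes can be set beside each other only per length of transcript. In control sham libraries, mean CPM per kilobase of principal transcript was highest for the catalytic head subunits of ATP synthase, Atp5b (beta) at 2910 and Atp5a1 (alpha) at 2055, followed by Cox6a2 at 1906, Cox4i1 at 1834 and Atp5g3, a c-ring gene, at 1794. Within complex IV the heart and muscle isoforms stood above their partners: Cox6a2 at 1906 against Cox6a1 at 92.0, Cox7a1 at 1652 against Cox7a2 at 503.5, and Cox8b at 1226 against Cox8a at 119 CPM per kb. The leading genes of the other complexes were Uqcrh, the hinge protein of complex III, at 1049, and Ndufa4 at 1185 CPM per kb. At the low end, Cox7b2 had 51 counts in all libraries together and Cox8c had none, and neither was tested, which left 76 genes. Atp5l, which encodes subunit g of ATP synthase, had 10.15 CPM per kb. Nothing given states how the authors' counting treated reads that match several places, so the levels of genes with copies elsewhere are uncertain, and Atp5l is given with that limit.

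In dKO hearts, TAC was compared with sham. All 76 tested genes had a lower estimate after TAC, with a median log2 change of -0.99, a 1.99-fold lower level, against a median of -0.01 over all 14712 genes tested. By complex the median log2 change was -1.04 for complex I, -0.92 for complex III, -1.07 for complex IV and -0.78 for complex V. All 3 dKO TAC libraries lay below all 3 dKO sham libraries in 32 of the 76 genes, where 14.5% of all genes did. At an adjusted p under 0.05 (edgeR's quasi-likelihood test, Benjamini-Hochberg over all genes tested), 2 of the 76 fell, Cox7a1 and Cox6b2, where 3.19% of all genes fell, and 67 of the 76 were lower at an unadjusted p under 0.05, against 14.8% of all genes. Without dKO TAC replicate 2 and dKO sham replicate 1 the median was -0.46, 12 of the 76 fell, and the background was 4.66% of 14923 genes. Those 12 were 7 of complex I (Ndufv3, Ndufb7, Ndufs8, Ndufs7, Ndufb10, Ndufa8 and Ndufs6), 2 of complex III (Uqcr11 and Uqcrq), 3 of complex IV (Cox4i2, Cox7a1 and Cox8b) and 0 of complex V. Their log2 changes ran from -1.55 for Cox4i2 to -0.61 for Uqcr11. With those libraries left out, both dKO TAC libraries lay below both dKO sham libraries in 73 of 76 genes, where 34.9% of all genes did, and Atp5l was the only one that lay above. Left out alone, dKO sham replicate 1 gave a median of -0.31 and 0 genes called, where 2.55% of all genes fell, and dKO sham replicate 3 gave 34 that fell, where 4.85% of all genes did. Subtracting the transcript-length trend from all 12 gave a median of -0.55 and 10 genes that fell, where 4.47% of all genes did.

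In control hearts, 73 of the 76 genes had a lower estimate after TAC, with a median log2 change of -0.25, a 1.19-fold lower level. The complex medians were close to each other, at -0.25 for complex I, -0.23 for complex III, -0.27 for complex IV and -0.28 for complex V. None of the 76 passed the adjusted threshold in edgeR's quasi-likelihood test, where 0.347% of all genes fell, and 2 were lower at an unadjusted p under 0.05 (Ndufs1 and Atp5s), where 6.1% of all genes were. DESeq2 also called 0, whereas limma-voom with library quality weights called 50, with 2965 of 14712 genes lower under that test. Leaving out the 2 dKO libraries, which changes no control library but the shared estimate of spread and the genes that pass the filter, left 0 called against a background of 1.81%, with 15 genes lower at an unadjusted p under 0.05 against a background of 12.1%. All 3 control TAC libraries lay below all 3 control sham libraries in 3 of 76 genes, Cox6b2, Atp5l and Atp5s, where 10.8% of all genes did. Control TAC replicate 1, which had the lowest fibroblast marker sum of the TAC libraries, also had the highest summed level of these genes among the 3 control TAC libraries, at 40398 CPM against 30265 and 29582 CPM.

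Over both genotypes, 6 of the 76 genes fell after TAC, among them Cox7a1, Cox6b2, Atp5s, Ndufv1 and Uqcrc1, with a background of 7.08% of all genes lower (edgeR's quasi-likelihood test, Benjamini-Hochberg). The median log2 change was -0.62, and 58 of the 76 were lower at an unadjusted p under 0.05, against 15.3% of all genes. Without dKO TAC replicate 2 and dKO sham replicate 1 the median was -0.37 and 32 of the 76 fell, where 9.98% of all genes did. These 32 were 19 of 36 genes of complex I, 3 of 8 of complex III, 7 of 15 of complex IV and 3 of 17 of complex V. The 5 TAC libraries lay below all 5 sham libraries in 2 of the 76, Cox6b2 and Atp5s, where 4.61% of all genes did, and the others had overlapping ranges. With 1 library left out at a time from the 12, the count was 0 to 32, and each of the 6 calls was lost in 4 to 8 of the 12 fits.

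The difference between the genotypes in the TAC change was tested as an interaction. None of the 76 genes passed in edgeR's quasi-likelihood test, where 0% of all genes did. At an unadjusted p under 0.05, 1 gene, Atp5sl, had a negative estimate, where 2.29% of all genes did. The median interaction log2 estimate was -0.78 over the 76 genes, -0.04 without dKO sham replicate 1 alone and -0.25 without the 2 libraries, when again 0 passed, where 0.0134% of all genes did. DESeq2 called 0 and limma-voom with library quality weights called 3, where it called 9.12% of all genes lower and 7.86% higher. The counts of genes that fell in dKO and in control hearts therefore give no tested difference between the genotypes.

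**Figure D2:**
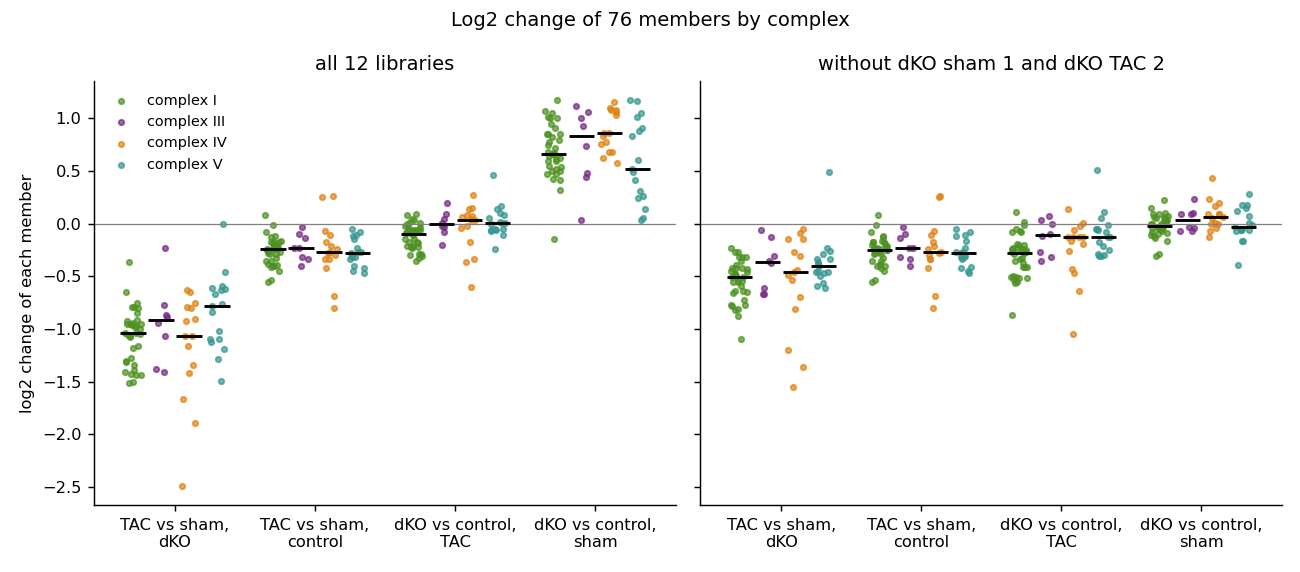
Log2 change of each of the 76 tested genes (vertical axis) in the 4 simple comparisons (horizontal axis), coloured by complex, with all 12 libraries (left) and with 10 libraries, dKO sham replicate 1 and dKO TAC replicate 2 being left out (right). Points are genes and black bars are complex medians; the complex I median for TAC in dKO is -1.04 on the left and -0.51 on the right, and that for dKO against control after sham is 0.67 on the left and -0.02 on the right.

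The dKO was compared with control within each surgery. After TAC, the median log2 change over the 76 genes was -0.05, with 47 estimates negative and 29 positive. No gene passed the adjusted threshold in edgeR's quasi-likelihood test, where 0.428% of all genes did, and 0 had an unadjusted p under 0.05. DESeq2 called 0 and limma-voom with quality weights called 4, where it called 11.1% of all genes lower and 10.3% higher. Without the 2 libraries the median was -0.23 and again 0 of the 76 passed, where 3.4% of all genes did, with 14 lower and 1 higher at an unadjusted p under 0.05, against 10.1% of all genes lower and 10.6% higher. After sham, 75 of the 76 had a higher estimate in dKO, with a median log2 change of 0.73, and 24 were higher at an unadjusted p under 0.05, where 6.27% of all genes were. None passed the adjusted threshold, where 0.068% of all genes did, and DESeq2 and limma-voom also called 0. Without dKO sham replicate 1 alone the median was 0.00. With dKO TAC replicate 2 left out as well it stayed at 0.00, with 37 of 76 estimates positive and 0 called, where 0.0737% of all genes were. At an unadjusted p under 0.05, 0 genes were then lower, against a background of 3.73%, and 2 were higher, against a background of 2.81%. The higher estimates in dKO sham hearts thus rested on replicate 1. Averaged over surgeries, the dKO and control differed in 0 of the 76 genes by edgeR, DESeq2 or limma-voom, where 0.585% of all genes passed in edgeR, with a median log2 change of 0.33 and 1.33% of all genes passing without the 2 libraries, when the median was -0.09.

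In complex I, the core subunits carry the flavin and the iron-sulphur clusters that pass electrons to ubiquinone. Ndufv1, which binds NADH and the flavin, had 509, 581 and 545 CPM in dKO TAC and 1861, 781 and 711 CPM in dKO sham libraries, and 680, 497 and 419 CPM in control TAC and 807, 625 and 872 CPM in control sham libraries. The dKO groups did not overlap and the control groups did, and over both genotypes Ndufv1 fell after TAC by 0.78 ± 0.24 on the log2 scale (SE, edgeR adjusted p = 0.0438). It also fell without the 2 libraries, by 0.52 ± 0.15 (edgeR adjusted p = 0.0408). Ndufs1, the largest of the nuclear core subunits, was the complex I gene with the smallest p for TAC in control hearts, with 759, 518 and 421 CPM in control TAC against 915, 666 and 902 CPM in control sham libraries. The groups overlapped in replicate 1 of TAC, and the log2 change of -0.55 ± 0.23 did not pass (edgeR adjusted p = 0.257). In dKO hearts Ndufs1 had 570, 530 and 648 CPM after TAC and 723, 807 and 713 CPM after sham, and here dKO sham replicate 1 did not stand above the others. Ndufs1 was the only complex I gene with a negative estimate for dKO against control after sham, at -0.15 on the log2 scale.

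Other complex I genes were highest in dKO sham replicate 1. Ndufb7, an accessory subunit of the membrane arm, had 154, 253 and 155 CPM in dKO TAC and 1081, 271 and 256 CPM in dKO sham libraries, where replicate 1 was far above the rest. Ndufs7, a core subunit with the last iron-sulphur cluster before the quinone, had 172, 266 and 177 CPM in dKO TAC against 1034, 327 and 314 CPM in dKO sham, and 323, 231 and 221 CPM in control TAC against 333, 256 and 356 CPM in control sham libraries. In both genes TAC and sham did not overlap in dKO hearts, and without the 2 libraries both fell after TAC in dKO, Ndufb7 by 0.77 ± 0.17 (edgeR adjusted p = 0.0232) and Ndufs7 by 0.88 ± 0.21 (edgeR adjusted p = 0.0328). With all 12 libraries neither passed, at an edgeR adjusted p of 0.0675 for Ndufb7 and 0.0538 for Ndufs7. Ndufv3, a small accessory subunit of the NADH-binding module, had 147, 250 and 143 CPM in dKO TAC against 1013, 268 and 243 CPM in dKO sham libraries, with an overlap at dKO TAC replicate 2. It fell by 0.81 ± 0.17 without the 2 libraries (edgeR adjusted p = 0.0206). Ndufa4l2, a relative of Ndufa4 known to be induced by low oxygen, had 8.12, 16.2 and 5.87 CPM in dKO TAC against 28.6, 13.2 and 16.7 CPM in dKO sham libraries, overlapping at dKO TAC replicate 2, and did not pass (-0.95 ± 0.40, edgeR adjusted p = 0.154). Across 75 members with a principal transcript, a Spearman rho was taken between its length and the log2 change of dKO against control after sham. The rho was -0.49, and -0.12 without the 2 libraries. Members share these libraries, so the rho is a description. Ndufa4, the most abundant member of this group per length, had a log2 change of -0.92 ± 0.36 for TAC in dKO and -0.24 ± 0.36 in control, and neither passed (edgeR adjusted p = 0.129 and 0.823).

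In complex III, Uqcrc1 and Uqcrc2 form the core scaffold and Uqcrfs1 is the Rieske iron-sulphur protein. Uqcrc1 had 728, 942 and 771 CPM in dKO TAC against 2739, 1242 and 1149 CPM in dKO sham, and 1185, 890 and 725 CPM in control TAC against 1323, 1014 and 1351 CPM in control sham libraries. TAC lay below sham without overlap in dKO hearts and overlapped sham in control hearts. Uqcrc1 fell by 0.73 ± 0.23 over both genotypes (edgeR adjusted p = 0.0482) and by 0.54 ± 0.15 without the 2 libraries (edgeR adjusted p = 0.0361). Uqcrc2 had 964, 1015 and 1024 CPM in dKO TAC against 1335, 1122 and 1057 CPM in dKO sham, and 1204, 932 and 792 CPM in control TAC against 1221, 932 and 1285 CPM in control sham libraries. Its log2 change over both genotypes was -0.23 ± 0.15 and did not pass (edgeR adjusted p = 0.32), nor did that of Uqcrfs1, at -0.54 ± 0.22 (edgeR adjusted p = 0.108). The estimates without the 2 libraries were -0.18 for Uqcrc2 and -0.33 for Uqcrfs1, and neither passed. The small subunit gene Uqcr10 had 256, 344 and 278 CPM in dKO TAC, 1071, 282 and 273 CPM in dKO sham, 279, 233 and 255 CPM in control TAC and 276, 221 and 284 CPM in control sham libraries. Apart from dKO sham replicate 1 its values lay close together, and without the 2 libraries its log2 change for TAC in dKO was -0.06 ± 0.15.

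In complex V, the F1 head makes ATP and the c ring in the membrane turns as protons pass. Atp5b had 4375, 4444 and 4611 CPM in dKO TAC against 9958, 5586 and 5150 CPM in dKO sham, and 5075, 3729 and 3720 CPM in control TAC against 5991, 4619 and 6115 CPM in control sham libraries. Atp5a1 had 3382, 3476 and 3703 CPM in dKO TAC against 7031, 5086 and 4634 CPM in dKO sham, and 4716, 3411 and 2887 CPM in control TAC against 5521, 4186 and 5526 CPM in control sham libraries. Both genes were lower in every dKO TAC library than in any dKO sham library and overlapped in control hearts, and over both genotypes neither passed, with a log2 change of -0.52 ± 0.20 for Atp5b and -0.57 ± 0.18 for Atp5a1 (edgeR adjusted p = 0.0988 and 0.0544; 0.138 and 0.0795 without the 2 libraries). The c ring is encoded by Atp5g1, Atp5g2 and Atp5g3, which give the same mature protein. Their log2 changes over both genotypes were -0.61 ± 0.28, -0.37 ± 0.18 and -0.52 ± 0.21, none of which passed (edgeR adjusted p = 0.154, 0.166 and 0.114). Without the 2 libraries Atp5g2 passed, at -0.33 ± 0.10 (edgeR adjusted p = 0.048). Atp5s, which by its symbol stands here but is a coupling factor and not a subunit, had 14.4, 14.0 and 15.7 CPM in dKO TAC against 25.6, 17.2 and 18.2 CPM in dKO sham, and 16.9, 12.3 and 14.3 CPM in control TAC against 21.7, 17.5 and 20.2 CPM in control sham libraries. TAC lay below sham without overlap in both genotypes, and Atp5s fell by 0.46 ± 0.13 over both (edgeR adjusted p = 0.0376), and by 0.34 ± 0.11 without the 2 libraries (edgeR adjusted p = 0.0466). Atp5sl, the other gene here that is not a subunit, had 26.1, 33.6 and 33.6 CPM in dKO TAC against 79.1, 44.0 and 44.2 CPM in dKO sham libraries, without overlap, and did not pass (-0.84 ± 0.24, edgeR adjusted p = 0.0543, and -0.56 ± 0.19 without the 2 libraries, edgeR adjusted p = 0.0847). Atp5j2, subunit f of the membrane part, had 310, 432 and 360 CPM in dKO TAC against 1668, 436 and 410 CPM in dKO sham libraries, which overlapped at dKO TAC replicate 2. Atp5l, for subunit g, had 6.12, 5.27 and 5.75 CPM in dKO TAC and 8.85, 4.03 and 4.4 CPM in dKO sham libraries, and 4.27, 3.56 and 4.67 CPM in control TAC and 6.35, 4.92 and 5.28 CPM in control sham libraries. Its log2 change for TAC was 0.00 ± 0.29 in dKO (0.49 ± 0.21 without the 2 libraries) and -0.40 ± 0.29 in control hearts, and no test of it passed in edgeR.

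**Figure D3:**
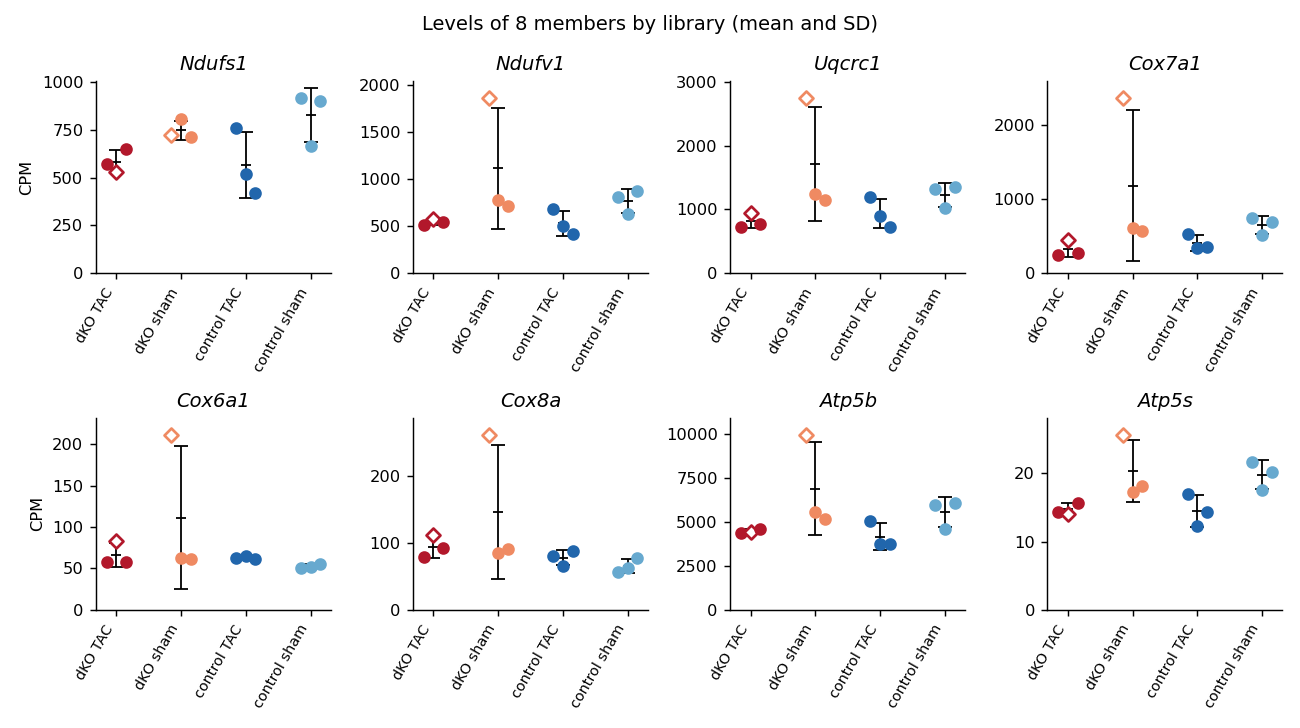
Levels of 8 members in CPM (vertical axis) for each library of the 4 groups (horizontal axis). Circles are libraries, open diamonds are dKO TAC replicate 2 and dKO sham replicate 1, and black marks are means with SD over 3 libraries; Cox7a1 reaches 2361 CPM in dKO sham replicate 1, whereas Ndufs1 has 723 CPM in that library and 807 and 713 CPM in the other dKO sham libraries.

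In complex IV the nuclear subunits surround the mitochondrially encoded catalytic core. For 3 of them, a heart and muscle isoform is paired here with a widely expressed partner. Cox7a1, the heart and muscle form of subunit 7A, had 239, 441 and 277 CPM in dKO TAC against 2361, 613 and 570 CPM in dKO sham, and 524, 336 and 347 CPM in control TAC against 742, 512 and 695 CPM in control sham libraries. The groups did not overlap in dKO hearts, and in control hearts only TAC replicate 1 reached into the sham range. Cox7a1 fell after TAC in dKO by 1.89 ± 0.49 on the log2 scale (edgeR adjusted p = 0.0387), and by 1.20 ± 0.25 without the 2 libraries (edgeR adjusted p = 0.0203). With dKO sham replicate 1, dKO TAC replicate 1 or 3, control TAC replicate 2, or control sham replicate 1 or 3 left out singly, Cox7a1 did not pass, with an edgeR adjusted p of up to 0.175, and without dKO sham replicate 1 its change was -0.89. In control hearts its log2 change was -0.69 ± 0.48 and did not pass (edgeR adjusted p = 0.533, and 0.0758 without the 2 libraries). Cox7a2, its widely expressed partner, had 271, 370 and 269 CPM in dKO TAC against 1029, 348 and 321 CPM in dKO sham, and 344, 260 and 282 CPM in control TAC against 346, 274 and 375 CPM in control sham libraries. TAC and sham overlapped for Cox7a2 in both genotypes. Its log2 change for TAC in dKO was -0.90 ± 0.38 with all libraries and -0.31 ± 0.18 without the 2 libraries, and neither passed (edgeR adjusted p = 0.151 and 0.301).

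Cox8b, the heart and muscle form of subunit 8, had 238, 387 and 251 CPM in dKO TAC against 1901, 452 and 407 CPM in dKO sham, and 401, 280 and 308 CPM in control TAC against 472, 367 and 485 CPM in control sham libraries. Its partner Cox8a had 78.1, 111 and 92.6 CPM in dKO TAC against 261, 84.8 and 91.5 CPM in dKO sham, and 80.4, 65.0 and 87.8 CPM in control TAC against 56.7, 62.0 and 77.7 CPM in control sham libraries. Cox8b in TAC lay below sham without overlap in dKO hearts and overlapped in control hearts, while Cox8a overlapped in both genotypes. Cox8b fell after TAC in dKO without the 2 libraries, by 0.81 ± 0.20 (edgeR adjusted p = 0.0343). Cox6a2, the heart and muscle form of subunit 6A, had 850, 1272 and 854 CPM in dKO TAC against 5204, 1425 and 1340 CPM in dKO sham, and 1202, 966 and 899 CPM in control TAC against 1374, 1046 and 1469 CPM in control sham libraries. Cox6a2 likewise did not overlap in dKO hearts and did in control hearts. Its partner Cox6a1 had 57.6, 83.2 and 58.0 CPM in dKO TAC against 211, 62.2 and 61.2 CPM in dKO sham, and 62.9, 64.8 and 61.7 CPM in control TAC against 50.7, 52.0 and 55.0 CPM in control sham libraries. Cox6a1 was the only member with every control TAC library above every control sham library, and its log2 change there of 0.26 ± 0.39 did not pass (edgeR adjusted p = 0.821, and 0.0731 without the 2 dKO libraries). Among the rest of complex IV, Cox6b2, an isoform best known from testis, was near the limit of detection, with 0.879, 0.468 and 0.329 CPM in dKO TAC against 6.57, 1.69 and 1.47 CPM in dKO sham, and 1.05, 0.534 and 0.979 CPM in control TAC against 2.15, 1.07 and 1.26 CPM in control sham libraries. TAC lay below sham without overlap in both genotypes, with few reads behind each value. It fell in dKO by 2.49 ± 0.62 (edgeR adjusted p = 0.0311), and without the 2 libraries the change of -1.36 ± 0.54 did not pass (edgeR adjusted p = 0.131). The call for Cox6b2 was also lost without dKO sham replicate 1 or any 1 of the dKO TAC libraries, with an edgeR adjusted p of up to 0.121. Cox4i2, the form of subunit 4 that is known from lung and low oxygen, had 3.55, 8.20 and 2.18 CPM in dKO TAC against 18.7, 7.77 and 9.07 CPM in dKO sham libraries, with an overlap at dKO TAC replicate 2, and passed in dKO only without the 2 libraries (-1.55 ± 0.30, edgeR adjusted p = 0.0158, against 0.0851 with them). For the main form of subunit 4, Cox4i1, and for the subunits Cox5a and Cox5b, the log2 estimates for TAC over both genotypes were -0.70 ± 0.27, -0.60 ± 0.26 and -0.70 ± 0.31, and none passed (edgeR adjusted p = 0.101, 0.136 and 0.145). Cox4i1 passed without the 2 libraries, at -0.40 ± 0.12 (edgeR adjusted p = 0.0465), and Cox5a and Cox5b did not, at -0.36 ± 0.14 and -0.38 ± 0.14.

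A ratio of isoforms taken within a library is free of the scaling of that library. The principal transcripts are short on both sides, at 393 and 659 nt for Cox7a1 and Cox7a2, 360 and 550 nt for Cox8b and Cox8a, and 680 and 571 nt for Cox6a2 and Cox6a1. The Cox7a1/Cox7a2 ratio of counts was 0.88, 1.19 and 1.03 in dKO TAC and 2.29, 1.76 and 1.77 in dKO sham libraries, and 1.53, 1.29 and 1.23 in control TAC and 2.14, 1.87 and 1.85 in control sham libraries. TAC lay below sham in every library of both genotypes, the 2 libraries that stood apart included. The Cox8b/Cox8a ratio was 3.04, 3.48 and 2.72 in dKO TAC and 7.28, 5.32 and 4.45 in dKO sham libraries, and 4.99, 4.31 and 3.50 in control TAC and 8.32, 5.93 and 6.23 in control sham libraries. The Cox6a2/Cox6a1 ratio was 14.7, 15.3 and 14.7 in dKO TAC and 24.7, 22.9 and 21.9 in dKO sham libraries, and 19.1, 14.9 and 14.6 in control TAC and 27.1, 20.1 and 26.7 in control sham libraries. For both pairs TAC again lay below sham without overlap within each genotype. The log2 ratio fell after TAC by 0.72 for Cox7a1/Cox7a2, 0.77 for Cox8b/Cox8a and 0.62 for Cox6a2/Cox6a1, which is 1.65-fold, 1.70-fold and 1.53-fold. Each had p = 0.005 in a two-sided exact permutation test with labels exchanged within genotype, the smallest p that its 400 arrangements can give, and an adjusted p of 0.0167 over 10 ratio tests. Without the 2 libraries the changes were -0.71, -0.72 and -0.60, each with an adjusted p of 0.04 in the same exact test. The other 2 pairs did not pass: the log2 ratio differed by -0.28 for Cox4i2/Cox4i1 (exact permutation p = 0.375) and by 0.02 for Ndufa4l2/Ndufa4 (exact permutation p = 0.955).

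**Figure D4:**
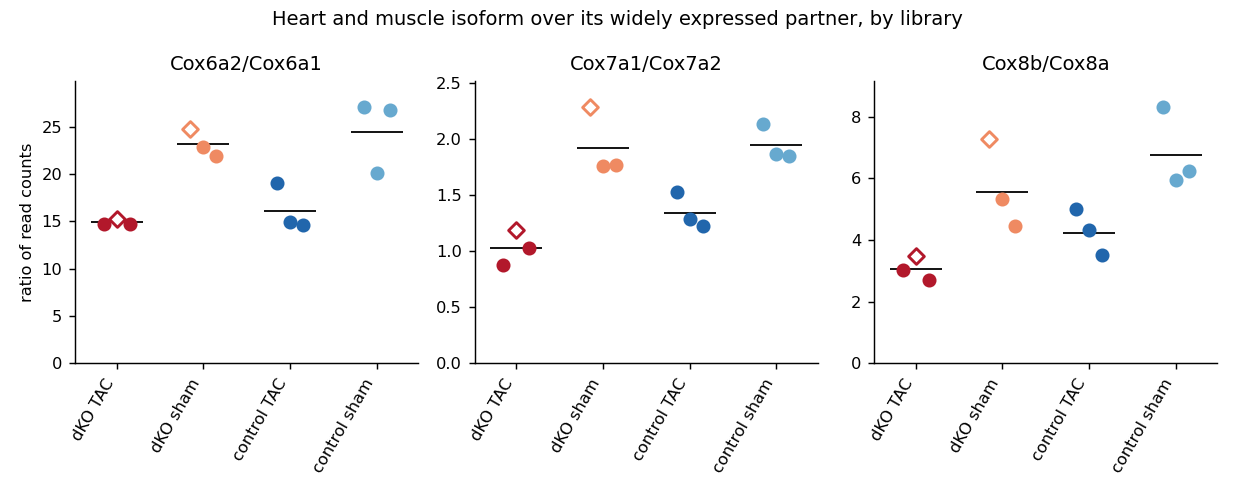
Ratio of read counts of the heart and muscle isoform to its widely expressed partner (vertical axis) for each library of the 4 groups (horizontal axis), for Cox6a2/Cox6a1, Cox7a1/Cox7a2 and Cox8b/Cox8a. Circles are libraries, open diamonds are dKO TAC replicate 2 and dKO sham replicate 1, and lines are geometric means over 3 libraries; in all 3 pairs the TAC libraries lie below the sham libraries of the same genotype.

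The ratios were also compared between genotypes. For dKO against control, with labels exchanged within surgery, the log2 ratio differed by -0.20 for Cox7a1/Cox7a2 (exact permutation p = 0.105, adjusted 0.21), by -0.37 for Cox8b/Cox8a (exact permutation p = 0.045, adjusted 0.112) and by -0.09 for Cox6a2/Cox6a1 (exact permutation p = 0.36). Without the 2 libraries the first of these was -0.32 and the second -0.51, each with an adjusted p of 0.04 in the exact permutation test. After TAC alone, all 3 dKO libraries lay below all 3 control libraries for Cox7a1/Cox7a2 and Cox8b/Cox8a, and after sham they overlapped. For Cox6a2/Cox6a1 the genotypes overlapped after either surgery. These comparisons of 3 against 3 libraries were not tested, since the smallest p of a two-sided exact permutation test there is 0.1. Whether the TAC shift differed between genotypes was not tested for these ratios. The widely expressed isoforms are also made by fibroblasts, whose markers were higher after TAC as given above, and the part of those cells in the ratios was not tested. Within control TAC, the fibroblast marker sum was 1143 CPM in replicate 1, which had the highest ratio of each pair, and 10007 CPM in replicate 3, which had the lowest. In dKO TAC libraries that sum was 2871 to 3965 CPM. Their Cox7a1/Cox7a2 ratios (0.88 to 1.19) and Cox8b/Cox8a ratios (2.72 to 3.48) lay below those of control TAC replicate 3 (1.23 and 3.50). Their Cox6a2/Cox6a1 ratios (14.7 to 15.3) did not lie below that replicate's 14.6.

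The promoters of the Cox7a and Cox8 pairs are printed because the ratio within each pair fell after TAC. They are RefSeq sequences of build GRCm38.p6, 250 bases before to 50 after the start, 5′ to 3′ on the gene's strand, and capitals mark matches to the motifs searched.
Cox7a1, chr7:30183921-30184220, plus strand: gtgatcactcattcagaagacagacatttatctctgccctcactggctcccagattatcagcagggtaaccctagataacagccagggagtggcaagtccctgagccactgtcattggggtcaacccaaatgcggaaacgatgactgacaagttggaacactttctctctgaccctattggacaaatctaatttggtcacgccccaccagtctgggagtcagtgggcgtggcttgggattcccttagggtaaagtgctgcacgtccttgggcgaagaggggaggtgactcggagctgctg
Cox7a2, chr9:79759804-79760103, minus strand: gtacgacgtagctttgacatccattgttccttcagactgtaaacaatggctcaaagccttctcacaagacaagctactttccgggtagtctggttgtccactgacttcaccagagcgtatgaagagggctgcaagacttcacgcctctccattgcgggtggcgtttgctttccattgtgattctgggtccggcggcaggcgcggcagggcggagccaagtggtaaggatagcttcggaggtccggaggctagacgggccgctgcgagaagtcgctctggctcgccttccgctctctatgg
Cox8b, chr7:140900397-140900696, minus strand: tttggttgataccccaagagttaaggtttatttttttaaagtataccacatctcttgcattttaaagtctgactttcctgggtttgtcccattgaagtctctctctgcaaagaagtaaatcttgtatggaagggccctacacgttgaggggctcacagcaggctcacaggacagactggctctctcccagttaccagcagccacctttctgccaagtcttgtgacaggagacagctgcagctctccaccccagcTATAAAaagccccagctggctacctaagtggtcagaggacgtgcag
Cox8a, chr19:7217567-7217866, minus strand: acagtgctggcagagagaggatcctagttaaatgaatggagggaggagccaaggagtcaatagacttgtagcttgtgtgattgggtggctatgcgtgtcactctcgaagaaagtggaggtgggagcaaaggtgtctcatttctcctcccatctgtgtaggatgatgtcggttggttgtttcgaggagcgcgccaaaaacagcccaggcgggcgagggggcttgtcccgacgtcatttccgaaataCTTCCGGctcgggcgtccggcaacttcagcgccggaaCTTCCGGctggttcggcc
The Cox8b promoter holds a TATAAA match just after its annotated start. The Cox8a promoter holds 2 matches to the ETS motif on the opposite strand, the first running across its start and the second after it. Cox7a1 and Cox7a2 held no match to any motif searched. The Cox6a2/Cox6a1 ratio fell as well, but no promoter was found for Cox6a2, so that pair is not printed. The Cox6a1 promoter held matches to the ETS motif and to the NRF1 motif given below. A match is a description of letters and not a binding site.

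The motifs searched on both strands were CCGGAAG (ETS factors, among them GABPA), GCGCATGC (NRF1), AAGATGGC (YY1), AAGGTCA (the ERR receptors) and TATAAA (the TATA box), none of which contains another. Promoters were found for 65 of the 78 genes. A gene was counted where any of its promoters held the motif. The NRF1 motif was in 13.8% of the 65, against 3.05% of all 27025 genes with a promoter and 5.64% of tested genes with a promoter. The YY1 motif was in 16.9% of members, 3.19% of all genes with a promoter and 4.92% of the tested ones. The ETS motif was in 21.5% of members, 9.93% of all and 18.7% of tested genes, the ERR motif in 9.23%, 5.38% and 4.04%, and TATAAA in 10.8%, 15.7% and 9.20% of the same 3 sets. When the 50 bases after the start were left out, the YY1 motif was in 3.08% of members, 1.83% of all and 2.3% of tested genes. Most of the YY1 matches in members thus lay after the start or across it, and the share before it was near that of tested genes.

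Other genes of the pathway were followed in lists chosen with earlier results known. Of all genes tested, 7.08% fell after TAC over both genotypes, and 9.98% did without the 2 libraries. Of 4 complex II genes, which link the citric acid cycle to the chain, Sdha and Sdhc fell after TAC over both genotypes, by 0.63 ± 0.18 (edgeR adjusted p = 0.0318) and 0.67 ± 0.20 (edgeR adjusted p = 0.0386). Sdha did not pass without the 2 libraries, at -0.55 ± 0.18 (edgeR adjusted p = 0.0591), and Sdhc did, at -0.47 ± 0.14 (edgeR adjusted p = 0.0409). The summed level of the 4 was 2112 to 2323 CPM in dKO TAC and 2866 to 5290 CPM in dKO sham, and 1937 to 3196 CPM in control TAC and 2813 to 3786 CPM in control sham libraries. Of 40 assembly factors, 0 passed over both genotypes in edgeR with all libraries. An unadjusted p under 0.05 was found for 14, where 15.3% of all genes were lower and 16.8% higher at that threshold. Without the 2 libraries 3 fell and 1 rose, where 9.98% of all genes fell and 11.9% rose. The risen one was Cox19, a copper factor of complex IV assembly. Of 15 regulators, 3 fell over both genotypes: Esrra, an estrogen-related receptor that drives many of these genes, by 0.66 ± 0.20 (edgeR adjusted p = 0.0428), Esrrb by 0.63 ± 0.20 (edgeR adjusted p = 0.0459) and Polrmt, the mitochondrial RNA polymerase, by 0.45 ± 0.14 (edgeR adjusted p = 0.0489). Esrrb did not pass when the 2 libraries were left out, at -0.56 ± 0.22 (edgeR adjusted p = 0.10), while Esrra and Polrmt did. Esrra had 65.9, 100 and 86.3 CPM in dKO TAC against 253, 129 and 125 CPM in dKO sham, and 116, 91.9 and 71.1 CPM in control TAC against 128, 102 and 119 CPM in control sham libraries. Ppargc1a, the coactivator PGC-1 alpha, had a log2 change of -0.36 ± 0.27 over both genotypes and did not pass (edgeR adjusted p = 0.372).

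The mitochondrially encoded subunits summed to 229777, 123827 and 229706 CPM in dKO TAC against 196631, 285604 and 273441 CPM in dKO sham, and to 277664, 205337 and 223843 CPM in control TAC against 334243, 317751 and 314539 CPM in control sham libraries. Every control TAC library lay below every control sham library in this sum. Of the 9 genes tested, 0 passed for TAC in control hearts (lowest edgeR adjusted p = 0.0942), where 0.347% of all genes fell. In dKO hearts 0 passed as well (lowest edgeR adjusted p = 0.0986), where 3.19% of all genes fell. Libraries were made from poly(A) RNA, and 4 of the 13 genes were too low to be tested. The ratio of nuclear to mitochondrial subunit counts was 0.129, 0.305 and 0.136 in dKO TAC against 0.540, 0.149 and 0.145 in dKO sham, and 0.145, 0.147 and 0.132 in control TAC against 0.134, 0.109 and 0.146 in control sham libraries. The 2 libraries that stood apart had the highest ratios of the 12, and the other 10 lay between 0.109 and 0.149.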

How the data were processed

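RNA of mouse cardiomyocytes was measured in 12 libraries. The authors deposited raw read counts per gene (whole numbers, not normalized). The submitters' processing notes name the genome GRCm38.p5, featureCounts from Subread 1.5.0p3, the aligner STAR 2.5.2b and Trimmomatic 0.36. Settings, annotation, strand setting and treatment of reads with several matches: not given in the sources used here, so none is assumed. Per the labels' protocols the kit was stranded and poly(A)-selected, with 200 ng of RNA and 100 nt single-end reads, after sedimentation of cells for 10 min.

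Genes with enough counts (filterByExpr) were fitted over all 12 libraries with edgeR 4.0.16 (TMM, quasi-likelihood test, R 4.3.3), 1 mean per group, and Benjamini-Hochberg adjustment over 14712 genes at 0.05. Errors are SE of log2 changes or SD between libraries. Alternatives were DESeq2 1.42.0, limma 3.58.1 voom with quality weights, no filter, only the groups compared, a replicate block, each library left out, both odd dKO libraries left out, and a lowess trend on exon length (GENCODE 21) removed. Isoform ratios used 0.5 added counts. The fitting code was run on simulated counts with known changes. Those counts held no outlying library and no length trend, so that run cannot show how calls hold up against either. Of 78 members 77 were annotated, Atp5o being ambiguous. Replicates were distinct: the lowest chi-square per degree of freedom between libraries of a group was 16.1. Total counts set the precision: 3 counts correspond to 0.0935 to 0.184 CPM. The members, gene lists, comparisons and the rule for naming genes were chosen with earlier results of these data known. That rule names the members called in a comparison, those with the smallest p per complex and the highest and lowest changes at a mean of at least 5 CPM, besides a set of core subunits and isoform pairs. Genes outside it were named after their values were seen. The values of 1 member that the rule names are not reported here.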

Additional observations from a re-analysis of the deposited data

How the results depend on the processing

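Counts of the 76 members called moved with the test, the filter and single libraries, while the medians over all members kept their sign for TAC in control, in dKO and averaged. Shares in parentheses are all genes called lower under the same setting. For TAC in dKO, with 2 called (3.19%), the count was 30 (2.5%) with no filter on low counts, 45 (8.42%) with DESeq2, 59 (20%; 1 of the 59 was higher) with limma-voom and quality weights, 0 (1.16%) when only the 2 groups compared were fitted, 12 (4.66%) without the 2 libraries that stand apart, 10 (4.47%) with the transcript-length trend removed and 5 (3.98%) with both steps. For TAC averaged over genotypes, with 6 called (7.08%), it was 24 (3.7%) with no filter, 31 (10.5%) with DESeq2, 68 (25.4%) with limma-voom, 32 (9.98%) without the 2 libraries, 22 (8.3%) with the trend removed and 20 (8.57%; 1 of the 20 was higher) with both steps. For TAC in control, with 0 called (0.347%), limma-voom gave 50 (20.2%) and both steps together 1 (1.57%). Limma-voom gave 4 for dKO after TAC (11.1% of all genes lower, 10.3% higher) and 3 for the interaction (9.12% lower, 7.86% higher), each with 0 called by edgeR. Leaving out 1 library at a time gave 0 to 1 for TAC in control (1 without control TAC replicate 1), 0 to 34 for TAC in dKO (0 without dKO sham replicate 1, dKO TAC replicate 1 or dKO TAC replicate 3, 8 (2.4%) and 34 (4.85%) without dKO sham replicates 2 and 3) and 0 to 32 for TAC averaged (0 where dKO TAC replicate 3, control TAC replicate 2 or control sham replicate 1 was left out, 20 (6.48%) and 32 (8%) without dKO sham replicates 2 and 3). The combination of both steps was chosen after seeing the data. Among estimates that were called in edgeR or under the alternative, the sign turned for Atp5l for TAC in dKO with limma-voom, at 0.50, and for Cox6a1 for TAC averaged with both steps, at 0.25. Estimates that were not called took both signs as 1 library at a time was left out for 4 of 31 named members for TAC averaged and 4 for TAC in dKO (Cox6a1, Cox8a, Uqcr10 and Atp5l in each), 2 for TAC in control (Ndufa4l2 and Uqcr10), 11 for the interaction and 13 to 19 in the comparisons of dKO with control. The causes were not tested.

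Replicate numbers did not pair the libraries: correlations of same-numbered deviations ran from -0.43 to 0.31, and 4 of 12 libraries were nearest to their own number. With the replicate block, TAC in dKO called 1, where 2.53% of all genes fell, and TAC averaged called 4, where 6.08% did. The ratio changes after TAC with that block were -0.62, -0.72 and -0.77 for the Cox6a2, Cox7a1 and Cox8b pairs. None of these 3 then passed: each had an exact permutation p of 0.0312, the smallest that the 64 arrangements within replicate numbers can give, and an adjusted p of 0.0781. For dKO against control, leaving out both libraries gave -0.32 for Cox7a1/Cox7a2 and -0.51 for Cox8b/Cox8a, which then passed, and leaving out 1 library gave -0.26 to -0.15 and -0.47 to -0.29.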
